A study of Mus musculus with 2 samples.

Results

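The genes described here encode the proteins of the cytosolic ribosome, read in dendritic cells of the mouse spleen. They are the 84 genes among 17751 in the deposited tables whose symbol begins with Rpl or Rps followed by a digit or a p, after pseudogenes with -ps in the name and the Rps6k kinases were left out. By symbol, 33 of them belong to the small subunit (Rps) and 51 to the large subunit (Rpl and Rplp). The rule is one of names and used no measured value. It takes in *Rps19bp1*, a nucleolar partner of *Rps19*, and *Rpl7l1*, an assembly factor related to *Rpl7*, neither of which is held to be a subunit of the mature ribosome. Subunits under other names, such as *Rpsa*, *Fau* and *Rack1*, fall outside it, and these 3 are given beside the group.

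A ribosome holds each of its proteins about once, beside the ribosomal RNAs, and translates messenger RNA in the cytosol. The messages for these proteins are short, abundant and long-lived. They begin with a C followed by a run of pyrimidines, the 5′ terminal oligopyrimidine (TOP) tract, through which mTORC1 and the La-related protein Larp1 set their translation together. Several members have paralogs that arose by gene duplication or retroposition. In single-cell libraries the summed share of these messages varies with cell type, growth and cell quality and is often used as a quality measure.

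Both libraries came from female C57BL/6 mice aged 8 weeks. One genotype was wildtype (WT) and the other *Batf3-/-*, a germline deletion of *Batf3*, the transcription factor that conventional type 1 dendritic cells (cDC1) need. Splenocytes of 6 mice per genotype were pooled, depleted of T and B cells, sorted as live MHCII+CD11c+ cells, tagged with barcoded antibodies and run as 1 library of 3′ transcript counts per genotype (CITE-seq). Since each genotype is 1 pool and 1 library, no difference between genotypes was tested. All intervals below are 95% intervals that cover counting error only, and they do not cover the spread between mice.

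The tables held 12224 WT cells with 122530055 unique molecular identifiers (UMIs, each 1 captured transcript) and 12119 *Batf3-/-* cells with 114517073 UMIs. The median UMIs per cell were 8374.5 and 8516. *Batf3* itself was read at 206 counts per 1000000 UMIs (CPM) in WT and 2.49 CPM in *Batf3-/-* (285 UMIs), in the direction of the labels. The cells fell into the authors' 20 clusters, of which 13 had at least 100 cells in each library and carried the comparison of genotypes. The cDC1 list (*Xcr1*, *Clec9a* and 5 others) summed to 4303 CPM in C4, 3690 in C6, 2986 in C18 and 3914 in C17 of WT, and the pDC list to 11938 in C14, where the cDC1 list stood at 3240. In each library 56 cells carried a cell barcode that was also found in the other. Leaving out those 112 cells moved no genotype ratio below by more than 0.0044 on the log2 scale.

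All 84 genes had UMIs in both libraries, and 82 had at least 500 in each. The other two were *Rpl3l*, the paralog of *Rpl3* used in striated muscle, with 31 UMIs in WT and 55 in *Batf3-/-*, and *Rpl39l*, the testis paralog of *Rpl39*, with 127 and 376. The members sat on 19 chromosomes, and 29 of them hold a small nucleolar RNA gene within the gene on the same strand.

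The stretch around the transcription start is printed for members whose values are described below, because a TOP tract would begin there. A marked run is a match of letters and is not shown to be a TOP tract. Each line gives 40 bases before and 20 bases after the start in RefSeq (GRCm38.p6), 5′ to 3′ on the gene's own strand. Capitals mark a run of at least 5 C or T that begins with C within 20 bases of the start, and where several qualify, the one that begins nearest to it.
Rpl31: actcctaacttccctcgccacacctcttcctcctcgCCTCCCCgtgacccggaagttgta
Rps27: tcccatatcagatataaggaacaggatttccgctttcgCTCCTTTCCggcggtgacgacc
Rps27rt: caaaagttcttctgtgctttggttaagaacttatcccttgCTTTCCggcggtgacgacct
Rps27l: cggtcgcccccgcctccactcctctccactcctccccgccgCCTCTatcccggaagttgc
Rpl36a: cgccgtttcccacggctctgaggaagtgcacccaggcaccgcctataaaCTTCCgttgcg
Rpl36al: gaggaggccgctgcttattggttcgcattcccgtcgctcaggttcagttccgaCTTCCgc
Rps26: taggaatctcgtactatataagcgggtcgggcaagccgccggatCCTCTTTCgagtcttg
Rpl35: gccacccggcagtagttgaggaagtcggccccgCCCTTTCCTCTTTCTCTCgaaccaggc
Rpl14: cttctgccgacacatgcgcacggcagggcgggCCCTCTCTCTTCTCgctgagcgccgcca
Rpl7l1: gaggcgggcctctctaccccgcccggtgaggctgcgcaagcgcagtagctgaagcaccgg

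The first 4 windows lie at chr1:39367811-39367870 (*Rpl31*, plus strand), chr3:90213629-90213688 (*Rps27*, minus), chr9:114982720-114982779 (*Rps27rt*, minus) and chr9:66946046-66946105 (*Rps27l*, plus). *Rpl36a* lies at chrX:134585614-134585673 (plus) and *Rpl36al* at chr12:69184048-69184107 (minus). *Rps26* lies at chr10:128626487-128626546 (minus), *Rpl35* at chr2:39005112-39005171 (minus), *Rpl14* at chr9:120571477-120571536 (plus) and *Rpl7l1* at chr17:46782637-46782696 (minus). *Rps27* and its single-exon retrocopy *Rps27rt* share a run of 19 bases, which takes in the end of the marked run. The windows of *Rps27* and *Rps27l*, which is a multi-exon paralog, share no run longer than 5 bases. In the window of *Rpl7l1* no run qualified within the bases searched.

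Of the 84 members, 64 had a promoter in the RefSeq table, and the others were not searched. For a gene with several annotated starts, the start with the nearest run was kept, for members and all other genes alike. The printed windows and the motif counts use the same start. A pyrimidine run of this kind was found in 51 of the 64 (79.7%), against 51.4% of the 27025 promoters of all genes. Genes with more starts had more chances of a run, and members were not matched with other genes for this. In the 300 bases around the start, the ETS core CCGGAA was present on either strand in 33 members (51.6%, against 15.3% of all promoters). The YY1 core ATGGCG was present in 19 (29.7% against 9.16%) and the TATA box TATAAA in 7 (10.9% against 14.2%). The E box CACGTG, to which Myc binds, was found in 6 (9.38% against 7.04%). These counts are matches of letters and say nothing of whether a factor is bound.

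Over all cells, the 84 genes took 23.1% of UMIs in WT (interval 23.05 to 23.07) and 24.2% in *Batf3-/-* (24.21 to 24.22). In clusters other than C9, C17 and C18 the share lay between 16.5% (C12) and 27.1% (C2), with C9 and C17 far below that range and C18 above it. Among the 13 shared clusters the share in WT was highest in C13 (26.0%), which holds lymphoid cells, and in C2 (26.0%) and C3 (25.7%), and lowest in C10 (18.7%) and C9 (5.58%). In *Batf3-/-* it was highest in C2 (27.1%) and C3 (26.0%) and lowest again in C10 (20.04%) and C9 (5.87%). The clusters kept nearly the same order in both libraries (Spearman's rho 0.962 over 13 clusters, which were built on the cells of both). The clusters were built from the same transcripts, so these levels are a description. The small subunit genes took 44.9% of the members' UMIs in WT and 45.1% in *Batf3-/-*. Over clusters of at least 25 cells that proportion ran from 41.8% (C17) to 46.4% (C7), a narrow range beside that of the summed share.

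**Figure D1:**
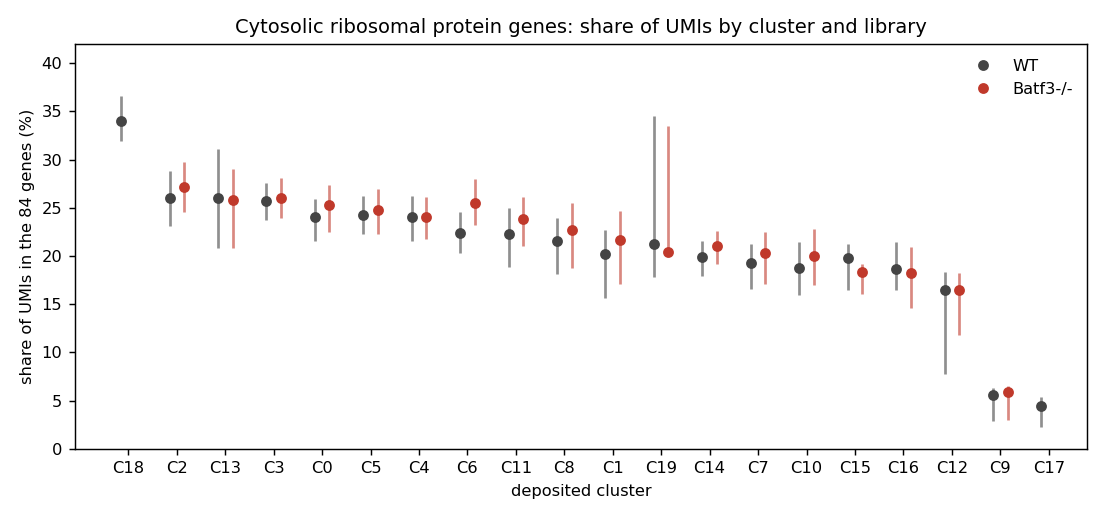
The 84 ribosomal protein genes as a share of all UMIs (y axis, %) in each deposited cluster (x axis), WT in grey and *Batf3-/-* in red. Points are the share of summed UMIs and lines run from the lower to the upper quartile over cells. C18 stands at 34.1% in WT, C9 at 5.58% and C17 at 4.42%, and the other clusters sit between 16.5 and 27.1%.

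Within a cluster the share differed between labels that the authors' reference-based annotation had assigned. In C13 it was 37.5% in the 56 WT cells labelled T cells and 35.5% in the 19 from *Batf3-/-*, against 25.8% and 25.1% in innate lymphoid cells. It was 21.2% and 22.6% in NK cells of that cluster and 23.6% and 25.9% in its cells labelled DC. The 23 WT cells labelled NKT took 25.4%. Of T, NK, innate lymphoid and DC labels, T cells thus carried the highest share in C13 in both libraries, at a median of 4307.5 UMIs per WT cell against 11427 in the cells labelled DC. The T cell list, of which 5 of 6 genes were in the tables, summed to 1110 CPM in C13 of WT and 680 CPM in *Batf3-/-*.

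C19 was a mixture that a single share hides. Its summed share was 21.3% in WT (29 cells) and 20.4% in *Batf3-/-* (36 cells), while the median over its cells was 31.7% and 30.4%. The cells annotated as stem cells took 28.1% and 31.3%. The lowest cells of C19 stood at 0.444% and 0.519%.

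C4, C6, C17 and C18, which carry cDC1 markers, spanned the whole range of the clusters in WT. C4 (2202 WT cells) took 24.1% in WT and C6, whose cells are mostly in S or G2M phase by the deposited calls, took 22.4%. C18 (76 WT cells) took 34.1% (33.9 to 34.2) and C17 (90 WT cells) 4.42% (4.34 to 4.50). C12 (394 WT cells), where the cDC1 list summed to 648 CPM, took 16.5%. Of these, C4 and C12 held 31 *Batf3-/-* cells each, at 24.02% and 16.5%, and C17 and C18 held 1 and 2 *Batf3-/-* cells.

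Set against C4 gene by gene in WT, C18 was higher for 81 of the 81 members whose mean over both clusters reached 50 CPM. The median log2 ratio was 0.49, against -0.19 for all 1917 such genes. Of all those genes, 37.4% were higher. At a log2 ratio of 0.5, 36 members passed on the high side, beside 6.36% of all genes. *Rps26* stood furthest up, at 1909 CPM in C4 and 3568 CPM in C18 (log2 ratio 0.90), and *Rpl7l1* stood nearest to 0 (0.04). The group was thus higher as a whole in C18, by amounts that differed between members. *Malat1*, a nuclear RNA, took 4.03% of UMIs in C4 and 0.426% in C18. The 6 erythroid genes summed to 205 CPM in C4 and 7362 CPM in C18, with all 6 read in both, but 2 of the 76 cells held nearly all of these UMIs. In the other 74 cells, a choice made after the data were seen, the erythroid sum was 16.9 CPM and the member share 34.6%.

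In C12 the reverse was seen for nearly all members. Of the 81 members only *Rps27l* was above its level in C4 (log2 ratio 0.64), where 45.5% of all genes were, 52 of 81 members were lower by 0.5 or more (36.4% of all genes), and the median was -0.57 against -0.16 for all genes. *Rpl36al* was lowest, at 310 CPM in C4 and 130 CPM in C12 (-1.25). *Malat1* took 12.8% of UMIs in C12. The share in C12 also varied with depth, from 8.48% in the third of its WT cells with the fewest UMIs to 19.3% in the third with the most.

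C9 and C17 were low for every member. Against C0, the cluster with the most cells, C9 was lower for 81 of 81 members in each library (47.1% and 47.7% of all genes), with a median log2 ratio of -2.16 in WT and -2.14 in *Batf3-/-*, while the median of all genes was 0.10 in both. *Rpl36* was least reduced (-0.79 and -0.81), and *Rpl36a* (-2.99) and *Rpl10* (-2.95) were the lowest in WT and *Batf3-/-* respectively. In these cells 13.996% and 13.3% of UMIs came from mitochondrially encoded genes and 15.4% and 15.5% from *Malat1*. The median UMIs per cell were 1467 and 1487. C17 was likewise below C4 for all 81 members in WT (52.5% of all genes), with a median of -2.59, 13.7% mitochondrial UMIs and 29.6% *Malat1*. The parts of cell quality and cell type in these low shares cannot be told apart.

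The translation machinery around the members was set beside them by lists. One list, named translation factors here, held 16 genes whose messages also carry TOP tracts, *Tpt1* among them, which is not itself a factor. Across clusters of at least 25 cells, its share followed the members closely. Spearman's rho was 0.92 in WT (20 clusters) and 0.98 in *Batf3-/-* (18 clusters). *Rpsa*, *Fau* and *Rack1* together gave 0.93 and 0.89. Ribosome assembly factors, which act in the nucleolus, gave 0.58 and 0.55, and RNA polymerase I subunits and factors gave 0.37 and 0.31. The 78 mitochondrial ribosomal proteins, which build the separate ribosome of the mitochondrion, gave 0.29 and 0.17, and the mTORC1 and Myc genes 0.00 and -0.15. Without C9 and C17, the assembly factors gave 0.43 and 0.47, the polymerase I genes 0.14 and 0.19, and the mitochondrial ribosomal proteins 0.03 and 0.02, while the translation factors gave 0.90 and 0.97. These are descriptions over clusters of the same 2 libraries, in which all shares are parts of the same total. The differences between these values were not tested.

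**Figure D2:**
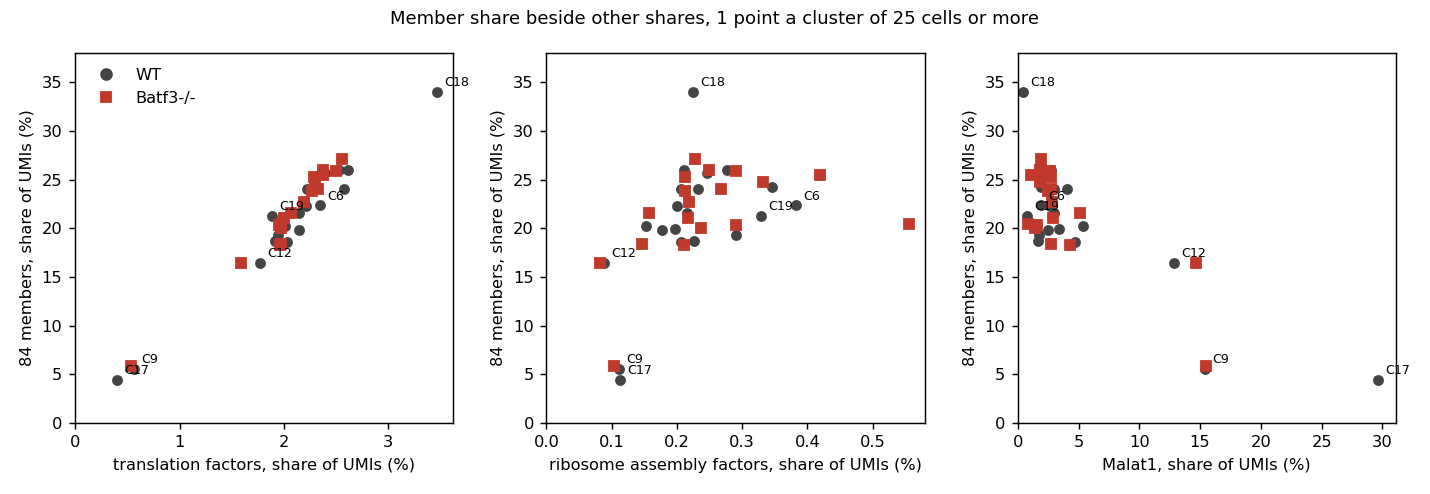
Share of the 84 genes (y axis, % of UMIs) beside the share of translation factors (left), ribosome assembly factors (middle) and *Malat1* (right) on the x axes (% of UMIs), with 1 point per cluster of at least 25 cells, WT as grey circles and *Batf3-/-* as red squares. The points form a narrow band in the left panel (rho 0.92 and 0.98), a wider one in the middle (0.58 and 0.55), and C9, C12 and C17 stand apart at high *Malat1*.

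Among the 13 shared clusters, assembly factors took their highest share of UMIs in C6, at 0.383% in WT and 0.419% in *Batf3-/-*. They took 0.225% in C18 of WT, although C18 had the higher member share, and 0.227% in the cycling cluster C10. *Npm1*, a nucleolar chaperone of ribosome assembly, was read at 767 CPM in C0 and 1312 CPM in C6 of WT, and *Fbl*, the methyltransferase of ribosomal RNA, at 126 and 302 CPM. In C10 of WT these genes stood at 766 and 89.9 CPM, no higher than in C0. *Ncl*, of the same list, went the other way, at 351 CPM in C10 and 258 CPM in C0 of WT. In C5 and C7, which the study also annotates as mitotic, *Npm1* was read at 1153 and 1038 CPM in WT. *Fbl* was read there at 214 and 147 CPM, so both genes were above C0 in those clusters.

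Within the same cluster, the member share was higher in *Batf3-/-* than in WT in 12 of the 13 clusters with at least 100 cells in each library. Smaller clusters of at least 25 cells in each library did not share this rise. The share was 19.8% in WT and 18.3% in *Batf3-/-* in C15 (145 and 52 cells), and 18.6% and 18.3% in C16 (58 and 68 cells). In C19 it was 21.3% and 20.4%, in C4 24.05% and 24.02%, and in C12 16.46% and 16.48%. The median log2 ratio over the 13 clusters was 0.08. It was also 0.08 (interval 0.07 to 0.08) in C0, where the share was 24.02% in WT and 25.3% in *Batf3-/-*. Among the others of the 13 clusters it ranged from 0.02 in C3 to 0.10 in C11, with C6 above that range and C13 below it. The median UMIs per cell were also higher in *Batf3-/-* in every shared cluster but C6, as in C0 (6648 and 7187) and C8 (7015 and 8115). In WT cells of C0 the share rose from 22.5% in the third with the fewest UMIs to 24.7% in the third with the most. In C6 of WT it was 22.4% and 22.1%. In C6 of *Batf3-/-* it fell from 26.4% in the third with the fewest UMIs to 24.8% in the third with the most. The median UMIs per cell of C6 were 19599 in WT and 18019 in *Batf3-/-*. The part of depth in these ratios was not tested. Per the study, WT mice came from the Animal Resources Centre, while *Batf3-/-* mice were bought from Jackson Laboratories and bred in house. With 1 library each, a difference between sources of mice, pools, sorts or libraries cannot be told apart from one between genotypes.

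C6 had the largest difference. Its members took 22.4% of UMIs in 797 WT cells and 25.5% in 727 *Batf3-/-* cells, a log2 ratio of 0.18 (0.18 to 0.19), and 78 of 81 members were higher (51.6% of all genes). In C13 the ratio was -0.01 (-0.02 to -0.00) and 39 of 81 members were higher (55.5% of all genes). Between these, 76 of 81 members were higher in C0 (54.6% of all genes), 79 in C1 (48.5%), 79 in C10 (46.5%) and 58 in C3 (56.5%). The shift was thus spread over the members rather than carried by a few.

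**Figure D3:**
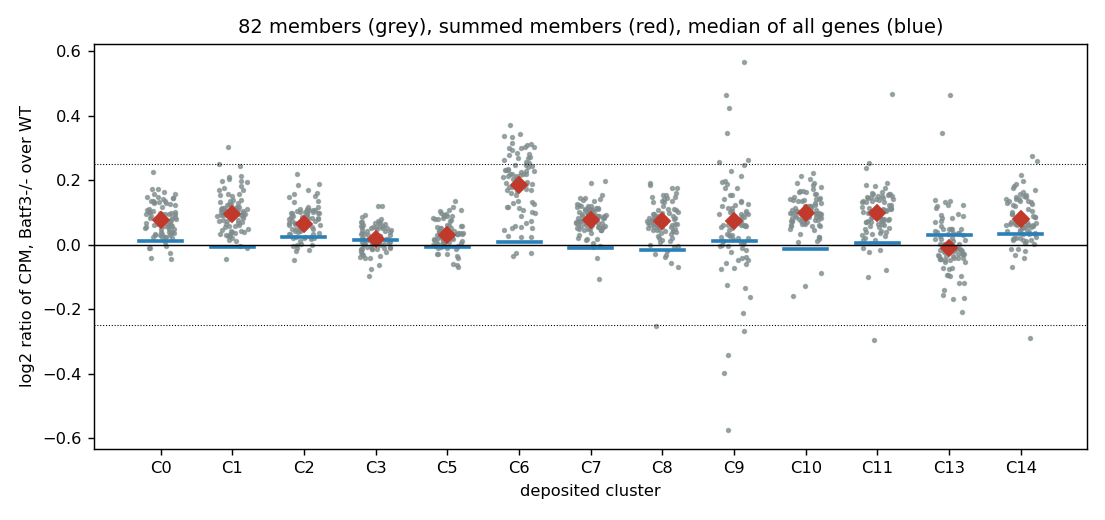
Log2 ratio of CPM, *Batf3-/-* over WT (y axis), for the 82 members with at least 500 UMIs (grey points), the summed members (red diamonds) and the median of all genes (blue bars) in the 13 clusters on the x axis. Dotted lines mark ±0.25, and points beyond them include members under 50 CPM. The diamonds lie above 0 in 12 clusters, highest in C6 (0.18), and at -0.01 in C13.

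Single members passed a log2 ratio of 0.25 in 31 gene and cluster pairs on the high side and 7 on the low side, out of 1051. Over all genes 8.26% of pairs passed on the high side and 8.89% on the low side. Of the 31, 21 were in C6, where 14.4% of all genes passed on the high side and 13.4% on the low side, and no member passed on the low side. In C9, the cluster with the fewest UMIs, 5 passed on the high side (20.8% of all genes) and 4 on the low side (18.3%). In C1 it was *Rps26* alone (5.93% of all genes on the high side). In C11 it was *Rpl29* on the high side (8.73%) and *Rpl7l1* on the low side (12.5%). *Rps26* passed on the high side in C14 as well (385 of the 2759 genes tested there), and *Rpl7l1* on the low side (11.1%). In C13 it was *Rps27l* (16.5%), and in C8 *Rps27rt* on the low side (9.81%). Of these, *Rpl29* was named after its values were seen. On the low side the counting interval of *Rpl7l1* took in 0 in C11 (-0.63 to 0.04) and in C14 (-0.77 to 0.18). So did the intervals of the low-side members in C9, except *Rps28*. That of *Rps27rt* in C8 lay below 0 (-0.45 to -0.05).

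In C6 the highest ratio was that of *Rpl35*, a subunit near the exit of the peptide tunnel, with 1313 CPM in WT and 1699 CPM in *Batf3-/-* (log2 ratio 0.37). *Rpl36* was read at 1293 and 1641 CPM (0.34), and *Rps26* at 1789 and 2218 CPM (0.31). *Rps2*, at the messenger RNA entry of the small subunit, was read at 3436 and 4124 CPM (0.26). Of the 21 members past 0.25 in C6, 9 had a counting interval whose lower bound was under 0.25, among them *Rps2* (0.246 to 0.281) and *Rps27rt* (0.17 to 0.44).

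The 3 subunits outside the symbol rule gave a log2 ratio of 0.25 (0.24 to 0.25) in C6. *Rpsa* was read at 4849 CPM in WT and 5782 CPM in *Batf3-/-* there, *Rack1* at 2182 and 2760 CPM, and *Fau* at 4077 and 4624 CPM. Genes that share the function but not the name thus moved with the members in C6. Over the 13 clusters their summed interval lay above 0 in all 13 (median 0.07, from 0.02 to 0.25), including C13.

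The translation factor list as a sum did not follow in C6, with a log2 ratio of 0.02 (0.01 to 0.03). One gene made most of that gap. *Eef1b2*, a subunit of the exchange factor that reloads eEF1A, was read at 3186 CPM in WT and 1802 CPM in *Batf3-/-* (log2 ratio -0.82), and without it, a choice made after its values were seen, the list stood at 0.12 (0.11 to 0.12). *Eef1b2* was also high in the WT cells of C4 (4050 CPM), C12 (2558) and C18 (6536), and read at 1600 CPM in the 31 *Batf3-/-* cells of C4 and 1182 CPM in the 31 of C12. In C0 it was 1475 and 1523 CPM. In C17, which also carries cDC1 markers, it was 360 CPM in WT. *Eef1b2* was thus higher in WT than in *Batf3-/-* in C4, C6 and C12. The difference was not confined to these clusters. In C15, which the study annotates as monocytes, *Eef1b2* was read at 1821 CPM in WT (145 cells) and 1204 CPM in *Batf3-/-* (52 cells). In C16 it was 1431 and 1252 CPM. The other leading genes of the list differed less in C6, with *Eef1a1* at 5507 and 6425 CPM and *Tpt1* at 6997 and 6926 CPM. *Tpt1*, the most abundant gene of the list, is not itself a translation factor, and its part in the summed ratio was not tested.

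The other lists were mixed, beside a median of 0.08 for the members. Assembly factors had a median of 0.05 with 8 intervals above 0 and 1 below, and 0.13 (0.12 to 0.15) in C6. RNA polymerase I genes had a median of 0.05 (5 above, none below) and 0.04 (0.00 to 0.07) in C6. The genes listed for surveillance by free ribosomal proteins, with *Trp53*, *Bax* and *Ccng1* among them, had 0.02 (3 above, none below) and 0.15 (0.10 to 0.20) in C6. The mTORC1 and Myc genes gave -0.19 (-0.22 to -0.15) in C6 and a median of -0.01 over the 13 clusters, where the interval lay above 0 in 3 and below 0 in 1. Mitochondrially encoded genes had a median of -0.07, with 9 intervals below 0 and none above. Mitochondrial ribosomal proteins had a median of 0.04 with 7 intervals above 0 and 1 below, and -0.02 in C6. For the translation factors the median was 0.02, with 9 above and 3 below.

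The cells of C6 were not the same mixture in both libraries. The cDC1 list summed to 3690 CPM in WT and 1213 CPM in *Batf3-/-*, with all 7 genes read in both, and the cDC2 list to 57.1 and 240 CPM. *Malat1* took 1.90% and 1.06% of UMIs. By the deposited phase calls, 13 WT cells and 189 *Batf3-/-* cells were in G1. Within G1 the member share was 24.3% and 27.4% (log2 ratio 0.18), within S 23.7% and 26.1% (0.14), and within G2M 20.4% and 23.0% (0.17). Within bands of UMIs per cell the ratio was 0.03 under 10000 UMIs (28 and 37 cells) and 0.14 to 0.27 in the 4 bands above. The ratio was therefore present within each phase, and the part of the unequal cDC1 marker level was not tested.

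C13 also changed its mixture. Cells labelled T cells, which carried the highest share of the 4 labels compared, numbered 56 in WT and 19 in *Batf3-/-*. Within C13 the ratio was 0.13 (0.12 to 0.14) in cells labelled DC and 0.09 (0.07 to 0.11) in NK cells, and -0.04 (-0.06 to -0.03) in innate lymphoid cells and -0.08 (-0.10 to -0.06) in T cells. The value for the whole cluster therefore stands for no single label in it.

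Taken gene by gene, 76 of the 82 members with at least 500 UMIs in each library had a median log2 ratio above 0 over the 13 clusters, and 68 were higher in *Batf3-/-* in at least 10 of them. Of all 9080 genes with as many UMIs, 51.1% had a median above 0 and 15.4% were higher in at least 10 clusters. The median over members was 0.07. *Rps26* (0.20), *Rpl35* (0.18), *Rps2* (0.15) and *Rpl36* (0.15) had the highest medians. *Rpl35*, *Rps2* and *Rpl36* were higher in all 13 clusters, and *Rps26* in 12, with C9 the exception. The lowest were *Rpl22l1* (-0.03), *Rpl14* (-0.02), *Rpl4* (-0.01) and *Rpl7l1* (-0.01). *Rpl4* was higher in 3 clusters and *Rpl14* in 5, and their ratios ran from -0.12 to 0.23 and from -0.10 to 0.05.

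To see single genes apart from the level of the group, each member's share of the members' UMIs in a cluster was set against its share in all other cells of the same library, as a log2 ratio called a departure. A member was taken to depart where the departure was at least 0.5 in size with 1 sign in both libraries. This was so in 32 of 1066 gene and cluster pairs (3.00%). Among all genes that reached 50 CPM on average, 22.2% of pairs passed the same size on the ratio of CPM centred on the median gene. The measures and floors of these shares differ, the members were not matched with other genes for abundance, and the difference was not tested. Outside C9, the standard deviation over members of the log2 ratio of a cluster to other cells was 0.08 to 0.28, against 0.41 to 0.92 over all genes. The 2 libraries gave like departures, with Pearson's r over the 82 members of 0.64 in C11 to 0.95 in C6.

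The 32 pairs involved 23 members, 18 of them in C9 and 10 of them outside it. No member departed in C2, C3, C5, C8 or C11. C6 had 5, C14 had 3, C10 had 2, and C0, C1, C7 and C13 had 1 each. On the ratio centred on the median gene, 69.8% of all genes passed that size in C9, 34.8% in C6, 28.3% in C14 and 15.0% in C10. It was 15.0% in C0, 29.2% in C1, 19.6% in C7 and 22.5% in C13. In the clusters without a departing member it was 9.64% in C2, 13.2% in C3, 9.19% in C5, 16.8% in C8 and 6.04% in C11.

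**Figure D4:**
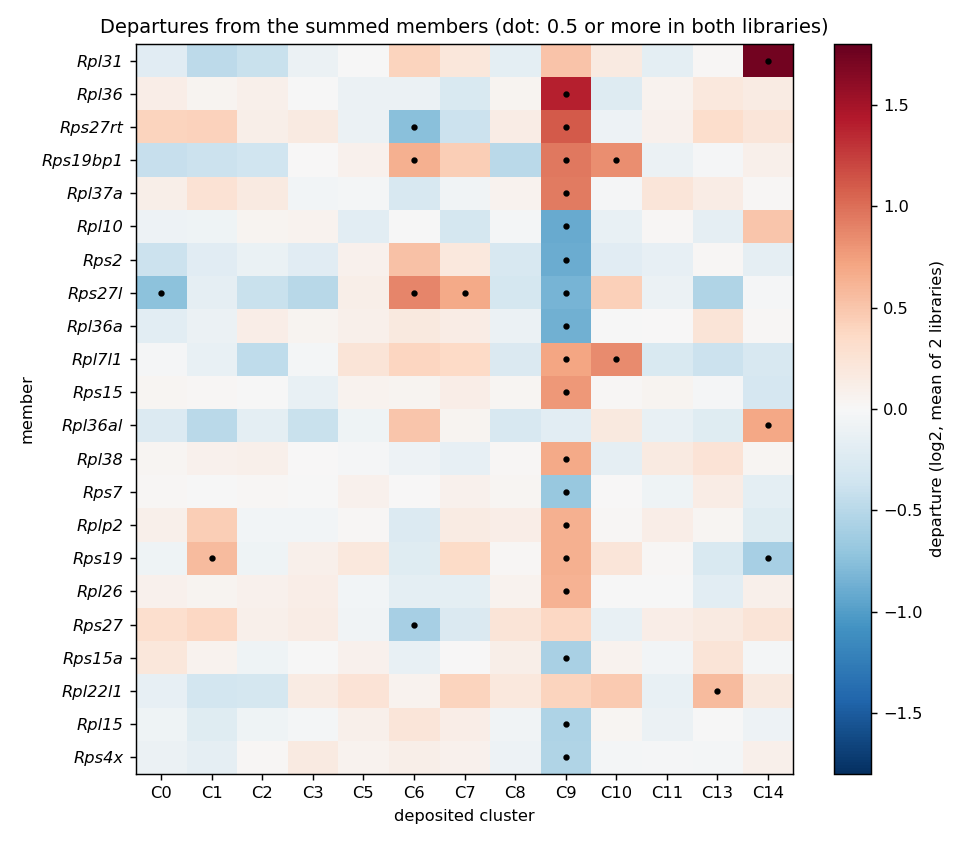
Departure (log2, mean of both libraries, colour) of members that depart in at least 1 cluster (rows, with 1 such member not shown) in the 13 clusters (columns), with a dot where the departure was at least 0.5 in size with 1 sign in both libraries. Most dots lie in the C9 column, and the strongest colour is that of *Rpl31* in C14 at 1.74.

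*Rpl31* in C14 was the largest departure. *Rpl31*, a large subunit protein at the tunnel exit, was read at 1430 CPM in C14 of WT and 1587 CPM of *Batf3-/-*, against 517 and 530 CPM in all other cells, a departure of 1.68 and 1.79. In the other 12 shared clusters it lay between 193 and 623 CPM in WT and between 176 and 755 CPM in *Batf3-/-*, so none of those clusters came near C14. Some smaller clusters lay above these ranges but below C14. *Rpl31* was read at 905 CPM in WT and 836 CPM in *Batf3-/-* in C19, at 674 and 794 CPM in C16, and at 717 CPM in C18 of WT. *Rpl31* was the only member above other cells by 0.5 in C14, where 10.5% of all genes were. Per 10000 UMIs of a cell, the median was 15.3 in C14 and 4.50 in C0 of WT, and 16.2 and 4.72 in *Batf3-/-*. Every cell of C14 had a UMI of *Rpl31*. The 10th percentile over WT cells of C14 (8.63) lay above the 90th percentile over WT cells of C0 (8.42), so that the higher level was one of most cells rather than of a few.

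The pDC list summed to 11938 CPM in C14 of WT and 12364 CPM of *Batf3-/-*, with all 6 genes read. The next highest shared cluster was C3, with 1246 and 1291 CPM, where *Rpl31* was read at 534 and 557 CPM. *Rpl31* (chr1:39367842-39371911, plus strand, 5 exons in GENCODE M21 on GRCm38) overlaps the end of *Tbc1d8* on the other strand over 420 bases. *Tbc1d8*, which was named after its values were seen, was read at 145 and 153 CPM in C14 and higher in C9 (299 and 372 CPM), where *Rpl31* was at 193 and 176 CPM.

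C14 had further departures. *Rpl36al*, an autosomal paralog of X-linked *Rpl36a*, was read at 331 CPM in WT and 350 CPM in *Batf3-/-*, against 251 and 234 CPM in other cells (0.61 and 0.79). Its annotation shares 1250 bases with a read-through gene on the same strand. *Rps19* went the other way, with 2632 and 2752 CPM against 4325 and 5141 CPM (-0.50 and -0.70). In C1 *Rps19* departed upward, at 5624 and 6322 CPM against 4247 and 4956 CPM (0.60 and 0.54). *Rps19*, the subunit whose loss underlies much of Diamond-Blackfan anaemia, was outside the rule for named genes and was named after its values were seen.

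**Figure D5:**
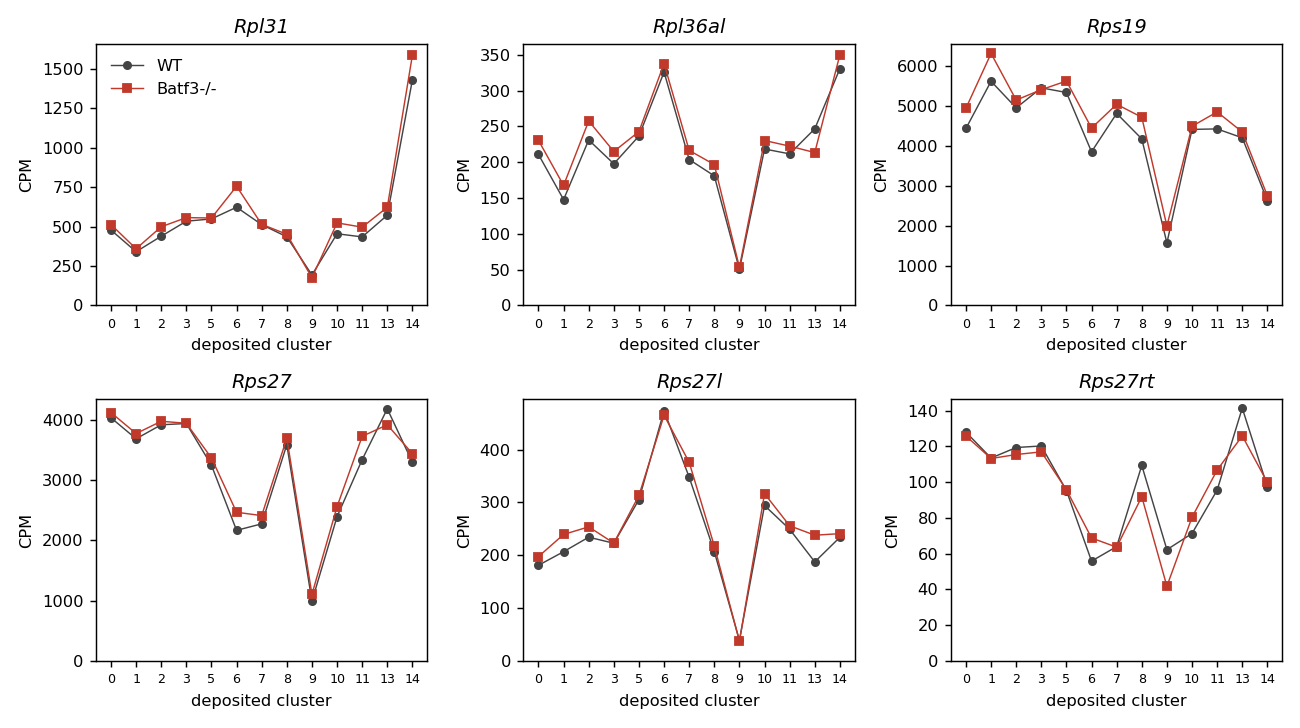
CPM (y axis, from 0) of *Rpl31*, *Rpl36al*, *Rps19*, *Rps27*, *Rps27l* and *Rps27rt* in the 13 shared clusters (x axis), WT as grey circles and *Batf3-/-* as red squares, joined by lines only to guide the eye. *Rpl31* stands at 1430 and 1587 CPM in C14, *Rps27l* peaks in C6 at 474 and 465 CPM, and *Rps27* is lowest in C9 at 989 and 1101 CPM and next lowest in C6, C7 and C10.

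*Rps27* and *Rps27l* departed in opposite directions in C6. *Rps27*, a small subunit protein with a zinc finger, was read in C6 at 2166 CPM in WT and 2466 CPM in *Batf3-/-*, against 3276 and 3651 CPM in other cells (-0.55 and -0.65). *Rps27l*, whose gene is a target of p53, was read at 474 and 465 CPM in C6, against 254 and 251 CPM (0.95 and 0.81). It was also above other cells in C7 at 348 and 376 CPM (0.60 and 0.76), and below them in C0 at 181 and 197 CPM (-0.82 and -0.66).

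For every 100 UMIs of *Rps27*, there were 4.48 of *Rps27l* in C0 and 21.9 in C6 of WT, and 4.79 and 18.9 in *Batf3-/-*. Across clusters of at least 25 cells Spearman's rho between the CPM of these paralogs was -0.26 in WT over 20 clusters and -0.48 in *Batf3-/-* over 18, and in C9 both were low. For *Rps27rt*, the retrocopy of *Rps27*, rho with its parent was 0.95 and 0.88. It was read at 55.7 and 68.7 CPM in C6, against 99.1 and 107 CPM (-0.78 and -0.73). Reads from the near-identical *Rps27* and *Rps27rt* may have been split between them in the counting, and the whole of *Rps27rt* lies within *Osbpl10* on the other strand. In WT, *Rps27l* was also high in C12, at 438 CPM against 281 CPM in C4, where it was the single member above C4.

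The departures of *Rps27l* and *Rps27* in C6 were smaller when only cells called G1 were used. With those cells *Rps27l* in C6 stood at a mean of 0.27 instead of 0.88, and *Rps27* at -0.43 instead of -0.60. Only 13 of the WT cells of C6 entered that comparison. Calls were also lost there for *Rps27rt* (mean -0.495) and *Rps19bp1* (0.13) in C6, *Rps27l* in C0 (-0.44), *Rps19* in C14 (-0.61) and *Rpl7l1* in C10 (0.54), each under 0.5 in at least 1 library. *Rpl31* in C14 was 1.87 with G1 cells and 1.74 with all cells.

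*Rps19bp1* was read in few molecules (3386 and 3260 UMIs in all) and departed upward in C6 (40.3 and 42.5 CPM against 25.8 and 26.6 CPM) and in C10 (42.3 and 38.7 CPM). *Rpl7l1* departed in C10, at 135 and 121 CPM against 85.3 and 88.8 CPM (0.97 and 0.73). Both are the members of the symbol rule that are not held to be ribosome subunits, and both departed in the cycling cluster C10.

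*Rpl22l1*, the paralog of the subunit *Rpl22*, departed in C13, at 690 CPM in WT and 682 CPM in *Batf3-/-* against 410 and 433 CPM in other cells (0.57 and 0.56). It was the only member above other cells by 0.5 in C13, beside 5.40% of all genes. In cells labelled DC alone the mean departure was 0.25 instead of 0.57, and the call was lost. For every 100 UMIs of *Rpl22* there were 14.6 of *Rpl22l1* in C12 of WT and 41.6 in C10. Over clusters the CPM of *Rpl22* and *Rpl22l1* gave a rho of 0.46 in WT and 0.33 in *Batf3-/-*, *Rpl7* and *Rpl7l1* gave 0.32 and 0.22, and *Rpl36a* and *Rpl36al* gave 0.73 and 0.54.

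In C9 the members spread more widely around the group than in the other shared clusters, on few UMIs. The members summed to 33240 UMIs there in WT and 50722 in *Batf3-/-*, and the standard deviation over members was 0.50 and 0.45, beside 1.36 and 1.34 over all genes, which take in genes of far lower counts. Above the group stood *Rpl36* (departure 1.43 and 1.38, 560 and 883 UMIs), *Rpl37a* (0.99 and 0.89), *Rps15* (0.79 and 0.77) and *Rpl38* (0.71 and 0.65). Below it stood *Rpl10* (-0.93 and -0.88), *Rps2* (-0.93 and -0.84), *Rpl36a* (-1.02 and -0.70) and *Rps7* (-0.67 and -0.68). All of these were below other cells in CPM, as were 81 of 81 members, beside 47.5% of all genes that were lower by 0.5. Over the 82 members, the departure in C9 went with a shorter annotated transcript (Spearman's rho -0.33 in WT and -0.34 in *Batf3-/-*). The other features examined, GC content and exon number, gave values between -0.21 and 0.26. Features were those of 1 annotated transcript per gene (5179 bases for *Rps15a*), which need not be the message captured. The departures of *Rps27rt* (37 and 36 UMIs) and *Rps19bp1* (8 and 11 UMIs) in C9 rest on too few molecules to be read as levels.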

How the data were processed

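Raw UMI counts per gene and cell were used as deposited for 1 WT and 1 *Batf3-/-* library. Per the study's methods and the submitters' processing notes, the authors demultiplexed reads with bcl2fastq 2.2.0, mapped and counted them with Cell Ranger on GRCm38, combined the libraries with a correction for sequencing depth, and clustered the cells in Seurat 3.0.5 on 16 components at a resolution of 0.5. They kept cells with 500 to 5000 genes, at most 20% mitochondrial and at most 50% ribosomal UMIs, so no cell with a higher ribosomal share could be read. The deposited cell table gave the cluster, cell cycle phase, reference-based label and, as a fraction per cell, the mitochondrial and ribosomal share. The deposited ribosomal fraction equalled the sum over all 100 symbols that begin with Rpl or Rps in 24343 of 24343 cells, within 1e-9. The antibody counts were not used here, and 0 columns belonged to samples of other series.

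Counts were summed per cluster and library, since cells are not replicates, and given as a share of all UMIs or as CPM. Shares carry exact Clopper-Pearson intervals and ratios the exact interval of a binomial split. PCR was corrected by molecular identifiers, and intervals cover counting error only. Ratios used clusters of at least 100 cells in each library and genes that averaged 50 CPM or more, departures used members of at least 500 UMIs in each library, and no pseudocount was added. Doublets were not called, and an alternative left out the 5% of cells with the most UMIs. Reads shared with processed pseudogenes or near-identical paralogs cannot be split with certainty.

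The genes named were the 14 members with the largest departures, the 4 highest and 4 lowest by median genotype ratio, paralogs, subunits under other names, and the 3 most abundant genes of each list, and some are not reported here. The members, lists and rules were chosen with earlier results of these data known. Positions came from GENCODE M21 and start windows from RefSeq (GRCm38.p6). The code, tested on simulated data, ran under Python 3.11.15 (pandas 2.3.3, scipy 1.17.1, numpy 2.4.6; plots by matplotlib 3.10.9).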

Additional observations from a re-analysis of the deposited data

Results flagged for a closer look

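The member share differed in direction between clusters under the same contrast. The log2 ratio of *Batf3-/-* over WT was 0.185 in C6 and -0.00989 in C13, and this difference was not tested, since each genotype is 1 library. The value in C13 stands for no single label, since its T cells numbered 56 in WT and 19 in *Batf3-/-*. Within labels of C13 the ratio was 0.13 in DC, 0.09 in NK cells, -0.04 in innate lymphoid cells and -0.08 in T cells. *Rps27rt* passed the log2 ratio of 0.25 in opposite directions, at 0.301 in C6 and -0.252 in C8, on 872 and 925 UMIs in C6 and 453 and 391 UMIs in C8. That difference was not tested either.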

How the results depend on the processing

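No paired analysis was possible because each genotype is 1 library. The median log2 ratio over clusters stayed between 0.06 and 0.08 and the number of clusters above 0 between 11 and 13 under every alternative run for them. The share over all cells (23.1% in WT, 24.2% in *Batf3-/-*) was 23.1% and 24.2% without the 5% of cells with the most UMIs, 23.5% and 24.7% in G1 cells, 24.1% and 25.2% with mitochondrial UMIs left out of the total, 22.1% and 23.1% as a mean over cells, and 24.3% and 25.5% for ribosome subunits only. Alternatives chosen after seeing the data gave 23.0% and 24.1% in cells labelled DC, 23.1% and 24.4% without C9, and 24.96% and 25.9% with mitochondrial UMIs and *Malat1* left out. The ratio of C6 (0.18) was 0.21 without the cells of most UMIs, 0.18 in G1 cells, 0.19 as a mean over cells, 0.18 when centred on the median gene and 0.17 without mitochondrial UMIs and *Malat1*. In C13 the ratio of -0.01 reversed to 0.13 in cells labelled DC. The pairs past 0.25 on the high side (31) were 49 in G1 cells, 47 with no filter on low values, 4 when scaled to the members' UMIs and 1 at a fold of 0.5. On the low side (7) they were 3 without C9 and 1 at 0.5. The 21 members of C6 were 0 at 0.5 and 0 when scaled to the members' UMIs, which by construction takes out the shift of the group. Of the 32 departures, 32 remained without the cells of shared barcodes and without those of most UMIs, 31 in cells labelled DC and 2 at a size of 1, when 1 member was left outside C9. Of the 31 that could be read in G1 cells (C7 held no G1 cells), 19 remained, and all 14 outside C9 remained without C9. Depth limits C9, where the members with departures rest on from 8 and 11 UMIs (*Rps19bp1*) to 934 and 1721 (*Rps19*) in WT and *Batf3-/-*, and *Rpl3l* and *Rpl39l* throughout.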

Other observations

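Among genes outside the members, *Eef1b2* showed the largest genotype ratio in C6 of the 3 most abundant genes of the translation factor list. Its log2 ratio of *Batf3-/-* over WT was -0.82 (interval -0.84 to -0.80) in C6. It was -1.34 (-1.44 to -1.24) in C4, on 31 *Batf3-/-* cells, and 0.05 (0.02 to 0.07) in C0. In C13 it was -0.19 (-0.27 to -0.10) and in C9 -0.45 (-0.76 to -0.15).

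*Fau*, which encodes a ubiquitin-like protein fused to a small subunit protein, was lower in C6 than in C0 in both libraries, at 4077 against 6671 CPM in WT and 4624 against 7123 CPM in *Batf3-/-*. *Rpsa* went the other way, with 4849 against 3775 CPM in WT and 5782 against 4058 CPM in *Batf3-/-*. These subunits under other names therefore parted between C0 and C6, as *Rps27* and *Rps27l* did.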
